A study of Arabidopsis thaliana with 204 samples.

Results

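The 49 genes described here are Small Auxin Up RNA (SAUR) genes of Arabidopsis thaliana, chosen by locus from the 33602 loci of the table and grouped by position. They were taken as 6 tandem clusters, named after the start of their locus codes, and 18 single loci. Of the single loci, SAUR51 and SAUR52 lie close together on chromosome 1 (28377377 to 28378310 and 28382813 to 28383769). The clusters held 8 genes (AT1G29, SAUR61 to SAUR66 with AT1G29490 and AT1G29510), 3 genes (AT2G21, SAUR6, SAUR7 and SAUR12), 4 genes (AT3G03, SAUR26 to SAUR29), 6 genes (AT4G34, SAUR1 to SAUR5 and SAUR50), 4 genes (AT4G38, SAUR13 to SAUR16) and 6 genes (AT5G18, SAUR19 to SAUR24). Of the 49 genes, 45 had a mean of at least 1 normalized read count over all samples and entered the tests, while SAUR2, SAUR8, SAUR11 and SAUR55 did not.

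SAUR genes are plant genes whose short, unstable transcripts accumulate within minutes of auxin treatment. Proteins such as SAUR9 and SAUR19 bind and inhibit phosphatases of the PP2C.D group, which otherwise dephosphorylate the proton pumps (AHA) of the plasma membrane. With the phosphatases inhibited the pumps stay active, the cell wall acidifies and the cell can expand. Many SAUR genes lie in tandem arrays of near copies, and members differ in where and in response to which hormone or light signal they are expressed.

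RNA was sequenced from wild-type Col-0 plants of 28 days, grown in 9 h light and 15 h dark. In FRtip, far-red light was added to the tip of the leaf and lowered the red to far-red ratio there to 0.05, against 2.0 in white light (WL). The leaf tip and the abaxial (lower) and adaxial (upper) side of the proximal petiole were collected from both treatments, the leaf tip from 40 min and the petiole sides from 60 min until 300 min after the start. Each group of tissue, treatment and time point held 4 samples of 13 pooled leaves, with the exception of WL leaf tips at 40 min, of which there were 3.

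The tests used 199 of the 204 samples, and 5 petiole samples at 40 min were left out since their groups held too few. Reads on genes ran between 805840 and 5538648 per sample. PIL1, a marker of low red to far-red ratio, was at 296 to 2626 normalized read counts in the leaf tip in FRtip, against 0 to 9.08 in WL. Its medians in FRtip and WL were 50.9 and 38.8 abaxially, and 35.9 and 31.3 adaxially. Summed over 8 abaxial identity genes, the medians in FRtip and WL were 727 and 713 in abaxial samples, against 414 and 411 in adaxial samples. Over 4 adaxial identity genes they were 310 and 287 abaxially, against 402 and 396 adaxially, and over 2 phloem genes 123 and 102 abaxially, against 98.7 and 92.4 adaxially. Pooled samples do not tell fewer cells from less RNA per cell, and p-values measure the spread between these pools.

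The clusters were compact. The AT5G18 genes lay within 21536 bases of chromosome 5 (5962773 to 5984308) and the AT1G29 genes within 21863 bases of chromosome 1 (10301377 to 10323239), while the AT2G21, AT3G03, AT4G34 and AT4G38 genes spanned 6147, 7054, 17386 and 9759 bases. Coding sequences of AT5G18 genes were the most alike, at 87.7 to 95.2% identity between pairs. Identity was 77.7 to 86.3% in AT3G03, 45.4 to 89.3% in AT1G29 and a median of 46.5% between members of no common cluster. Of 75-base stretches, the read length, the share found at no other place in the genome was lowest in AT1G29510 (72.4%), SAUR63 (77.3%) and SAUR62 (85.4%), and was at least 97.5% in every AT5G18 gene. Over the last 300 bases the share was 100% in these 3 AT1G29 genes and 99.6% in SAUR19 and SAUR20.

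The 250 bases before the transcript start are printed below for 7 members whose responses differed, SAUR22 and SAUR20 of AT5G18, SAUR63 of AT1G29, SAUR28 of AT3G03, SAUR15 and SAUR14 of AT4G38, and SAUR59 as a single locus that fell. They are RefSeq positions on the TAIR10.1 assembly, read 5′ to 3′ on the strand of the gene, and capitals mark CATGTG (the PBE-box, bound by PIF factors), CACGTG (the G-box, also bound by PIFs) and TGTCTC or TGTCGG (auxin response elements), each on either strand.
SAUR22 (chr5:5975088-5975337, minus strand): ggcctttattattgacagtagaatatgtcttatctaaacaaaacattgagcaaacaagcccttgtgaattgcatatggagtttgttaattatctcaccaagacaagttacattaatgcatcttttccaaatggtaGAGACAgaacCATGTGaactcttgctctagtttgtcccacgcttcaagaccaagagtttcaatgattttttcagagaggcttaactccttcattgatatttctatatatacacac
SAUR20 (chr5:5966786-5967035, minus strand): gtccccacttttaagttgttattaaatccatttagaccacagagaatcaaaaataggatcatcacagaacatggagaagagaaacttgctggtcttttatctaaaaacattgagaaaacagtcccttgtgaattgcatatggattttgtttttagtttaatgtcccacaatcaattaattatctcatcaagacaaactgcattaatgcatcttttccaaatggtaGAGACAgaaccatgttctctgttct
SAUR63 (chr1:10305109-10305358, minus strand): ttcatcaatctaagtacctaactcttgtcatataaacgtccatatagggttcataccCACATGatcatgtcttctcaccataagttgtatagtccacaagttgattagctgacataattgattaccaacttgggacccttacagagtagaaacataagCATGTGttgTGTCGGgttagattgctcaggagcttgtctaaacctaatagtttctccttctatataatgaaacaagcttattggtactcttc
SAUR28 (chr3:980563-980812, minus strand): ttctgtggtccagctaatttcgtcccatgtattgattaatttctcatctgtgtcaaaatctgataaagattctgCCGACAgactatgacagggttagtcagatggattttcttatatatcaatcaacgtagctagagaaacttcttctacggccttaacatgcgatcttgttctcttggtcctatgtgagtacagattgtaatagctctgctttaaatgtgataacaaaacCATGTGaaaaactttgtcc
SAUR15 (chr4:18125807-18126056, plus strand): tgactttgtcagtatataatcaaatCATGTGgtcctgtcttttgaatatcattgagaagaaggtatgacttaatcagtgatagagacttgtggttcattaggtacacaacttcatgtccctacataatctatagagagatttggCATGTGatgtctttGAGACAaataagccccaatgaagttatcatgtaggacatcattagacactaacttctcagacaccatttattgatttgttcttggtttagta
SAUR14 (chr4:18125560-18125809, minus strand): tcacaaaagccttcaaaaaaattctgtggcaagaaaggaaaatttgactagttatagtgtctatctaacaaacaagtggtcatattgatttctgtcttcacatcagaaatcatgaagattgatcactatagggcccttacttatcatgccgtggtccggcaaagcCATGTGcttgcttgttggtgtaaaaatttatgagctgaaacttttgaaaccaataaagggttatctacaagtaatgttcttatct
SAUR59 (chr3:22434614-22434863, plus strand): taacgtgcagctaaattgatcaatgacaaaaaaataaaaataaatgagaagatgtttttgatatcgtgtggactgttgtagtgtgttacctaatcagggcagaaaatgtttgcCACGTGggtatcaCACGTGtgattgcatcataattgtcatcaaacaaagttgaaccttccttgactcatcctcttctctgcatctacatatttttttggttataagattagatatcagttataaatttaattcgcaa

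SAUR14 and SAUR15 are transcribed away from each other, and their windows meet in the stretch between them. In the window of 250 bases before to 50 bases after the start, CATGTG or its reverse complement CACATG stood in 28 of the 49 members (57.1%), against 13% of 26711 promoters of the same length. It was found in 8 of 8 AT1G29 and 4 of 4 AT3G03 genes, in 4 of 6 AT4G34, 3 of 4 AT4G38 and 3 of 6 AT5G18 genes, in 1 of 3 AT2G21 genes and in 5 of 18 single loci. TGTCTC was present in 16.3% of members, against 14.2% of all promoters, TGTCGG in 4.08% against 5.12%, and CACGTG in 2.04% (SAUR59 alone) against 7.79%. These are letter matches within a fixed window, and no match is a shown binding site.

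In the leaf tip, where the far-red light fell, more SAUR genes were called higher than lower from the earliest window. At 100 to 180 min and at 300 min, lower calls were no more frequent among members than among all genes. Effects are given as the FRtip minus WL difference of log2(normalized read count + 1), a scale that understates changes of genes with few reads, and a gene was called at an adjusted p below 0.05 over the 19963 genes tested with limma. At 40 to 80 min, 19 of the 45 tested members were higher and 5 lower in FRtip, against 4.22% of all genes higher and 6.2% lower. At 100 to 180 min, 22 were higher and 7 lower (background 12.4 and 16.8%), and at 300 min 10 were higher and 2 lower (5.25 and 5.48%). The median effect over the members was 0.47, 0.20 and 0.14 in these windows, against -0.02, -0.01 and -0.01 over all genes.

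The petiole sides started later and moved mostly one way. At 60 to 80 min no member was called by limma on either side. Abaxially 0 were higher and 1 lower at an unadjusted p below 0.05 (background of calls 0.01% higher and 0.0% lower), adaxially 1 and 3 (0.00501 and 0.0%), and edgeR and DESeq2 also called 0. At 100 to 180 min, 28 of 45 were higher and 1 lower in the abaxial petiole, against 5.77 and 4.38% of all genes, and 25 were higher and 1 lower in the adaxial petiole, against 3.15 and 1.63%. The median effect over members was 0.93 abaxially and 0.56 adaxially. At 300 min, 0 members were higher and 1 was lower abaxially (8 and 4 at an unadjusted p below 0.05, background of calls 2.67 and 4.51%), and 0 were higher and 2 lower adaxially (3 and 4, background 1.26 and 1.98%). For higher members at 300 min, edgeR called 1 and DESeq2 2 abaxially, and both called 0 adaxially.

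**Figure D1:**
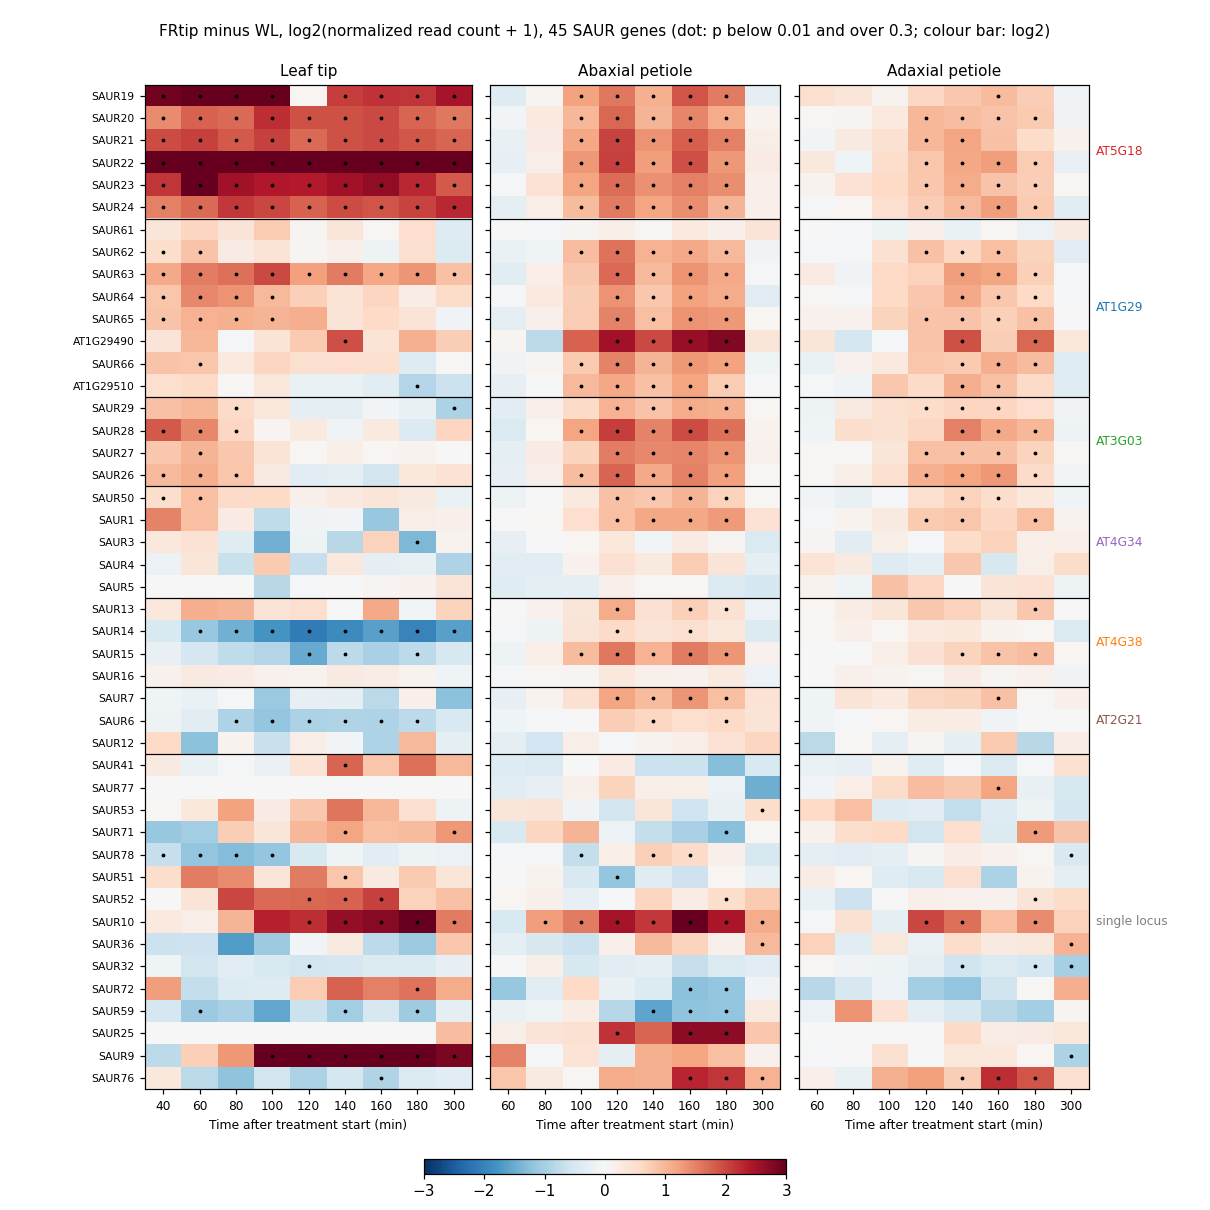
FRtip minus WL difference of log2(normalized read count + 1) for the 45 tested SAUR genes (one line each, grouped by cluster) at each time point in minutes in the leaf tip, abaxial and adaxial petiole, with colours held at ±3; dots mark an unadjusted p below 0.01 and a difference over 0.3 either way. AT5G18 genes are high in the leaf tip from 40 to 300 min, most cluster genes are high in the petiole from 100 or 120 to 180 min only, and SAUR14 is low in the leaf tip.

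At single time points a gene was called at an unadjusted p below 0.01 and a log2 difference over 0.3. In the leaf tip 13 members were higher at 40 min, 15 at 60 min and 12 at 80 min, against 1.71, 2.68 and 3.23% of all genes. Between 100 and 300 min the count was 9 to 14, while the background was 3.59, 4.5, 4.76, 4.62, 4.93 and 5.46% from 100 to 300 min. Abaxially 0 were higher at 60 min (0.496%, where 3 had an unadjusted p below 0.05 in either direction) and 1 at 80 min (0.366%), then 13 at 100 min (0.796%), 25 at 120 min (1.98%), 24 at 140 min (2.61%), 27 at 160 min (3.53%), 27 at 180 min (3.78%) and 4 at 300 min (3.5%). Adaxially 0 were higher at 60, 80 and 100 min (0.416, 0.456 and 0.436%, limma, with 1, 2 and 8 changed either way at an unadjusted p below 0.05), then 12 at 120 min (1.04%), 21 at 140 min (1.92%), 20 at 160 min (2.11%), 19 at 180 min (2.08%) and 1 at 300 min (2.2%). The adaxial rise was thus called 1 time point later than the abaxial one, a delay that was not itself tested.

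Onset was taken as the earliest such call that was repeated in the same direction at the next time point. Leaf tips had 16 upward onsets among the members, 13 of them at 40 min, SAUR9 at 100 min and SAUR10 and SAUR52 at 120 min. As 40 min was the first time point sampled there, an onset placed at it may have come earlier. The downward onsets there were those of SAUR78 at 40 min, SAUR14 at 60 min, SAUR6 at 80 min and SAUR15 at 120 min (0.917, 2.78, 3.75 and 4.14% of all genes were called lower at these times). On the abaxial side 26 members had an onset upward, SAUR10 at 80 min, 12 members at 100 min, 9 at 120 min, SAUR78 at 140 min and 3 at 160 min, and SAUR59 at 140 min (1.27% lower) and SAUR72 at 160 min (2.09%) had one downward. On the adaxial side 20 had one upward, 12 at 120 min and 8 at 140 min, and SAUR32 had one downward at 180 min (1.17%). With an adjusted p below 0.05 in place of this rule, 1 adaxial member had an onset upward. Abaxially at 100 min, where 12 onsets were placed, 0 members were higher at an adjusted p below 0.05 (limma). At an unadjusted p below 0.05, 21 had changed either way. The shares of all genes given here and above are of calls at 1 time point, not of onsets.

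On the petiole sides the AT5G18 genes shared their onset more than their peak. All 6 had their onset at 100 min in the abaxial petiole. In the adaxial petiole 5 of 6 had it at 120 min, and SAUR19 met the rule at no pair of time points. In the leaf tip all 6 had it at 40 min, as had every other cluster gene with an upward onset there. That was the first time point sampled, so the leaf tip onsets cannot be told apart. Abaxially 5 of the 6 peaked at 120 min and 1 at 160 min. In the leaf tip 2 peaked at 60 min, 3 at 100 min and SAUR24 at 300 min, and of the 5 with an adaxial onset 1 peaked at 120 min, 2 at 140 min and 2 at 160 min. In AT3G03 the onset was at 100 or 120 min abaxially and at 120 or 140 min adaxially for all 4 genes. In AT1G29 it was at 100 or 120 min abaxially for 7 of 8 genes and at 120 or 140 min adaxially for 6. Of the 26 members with an upward onset in the abaxial petiole, 15 peaked at 120 min, 1 at 140 min, 7 at 160 min and 3 at 180 min, and none at 300 min.

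SAUR19 to SAUR24 of AT5G18, the members best known for promoting cell expansion, were called higher in all 3 leaf tip windows and at 100 to 180 min on both petiole sides, 6 of 6 each time. SAUR22 (AT5G18050) moved most. At 100 min its leaf tip values were 157, 241, 227 and 192 normalized read counts in FRtip, against 8.67, 8.46, 10.6 and 7.94 in WL. The lowest FRtip sample was far above the highest WL sample, and the WL values rested on 3 to 7 reads each. Over 100 to 180 min it averaged 193 ± 31.7 in FRtip and 12.2 ± 4.29 in WL (SD, n = 20 each), a ratio of 15.8 and a log2 effect of 3.92 ± 0.16 (SE, adjusted p = 2.2e-28, limma).

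On the abaxial side of the petiole at 120 min, SAUR22 was at 173, 161, 204 and 201 normalized read counts in FRtip, against 41.8, 40.6, 36.99 and 57.3 in WL. The groups stood apart, with every FRtip sample above every WL sample. In the adaxial petiole at that time it was at 88.5, 48.8, 52.6 and 67.6 in FRtip, against 45.1, 36.8, 27.7 and 31.7 in WL. Here the lowest FRtip sample was only just above the highest WL sample. The largest adaxial effect came later, at 160 min (1.25 log2), while 120 min was the abaxial peak (2.05). The log2 effects at 100 to 180 min were 1.57 ± 0.09 abaxially and 0.91 ± 0.11 adaxially (SE, adjusted p = 2.4e-20 and 1.3e-08).

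At 300 min the tissues parted. SAUR22 was at 101, 141, 109.5 and 98.9 normalized read counts in the leaf tip in FRtip, against 19.5, 1.44, 16.3 and 3.89 in WL. Abaxially it was at 59.2, 64.3, 101 and 85.7 in FRtip, against 71.7, 55.7, 53.8 and 75.8 in WL. The leaf tip groups were still far apart, while the abaxial groups overlapped. The log2 effect at 300 min was 3.80 ± 0.36 for the leaf tip and 0.25 ± 0.19 for the abaxial side (SE, adjusted p = 4.4e-12 and 0.52).

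SAUR20 (AT5G18020), the AT5G18 gene with the highest mean, was at 308, 281, 254 and 289.7 normalized read counts in the leaf tip at 60 min in FRtip, against 71.8, 105, 66.7 and 89.4 in WL. Abaxially at 120 min the gene was at 174, 199, 188 and 216 in FRtip, against 63.1, 66.7, 39.7 and 66.4 in WL. Neither pair of groups overlapped. SAUR19 was the exception to the steady leaf tip rise, since at 120 min it averaged 8.09 ± 2.93 in FRtip and 7.55 ± 2.07 in WL (SD, n = 4 each), a log2 difference of 0.05, while its leaf tip effect at the other time points was between 2.06 and 3.35.

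**Figure D2:**
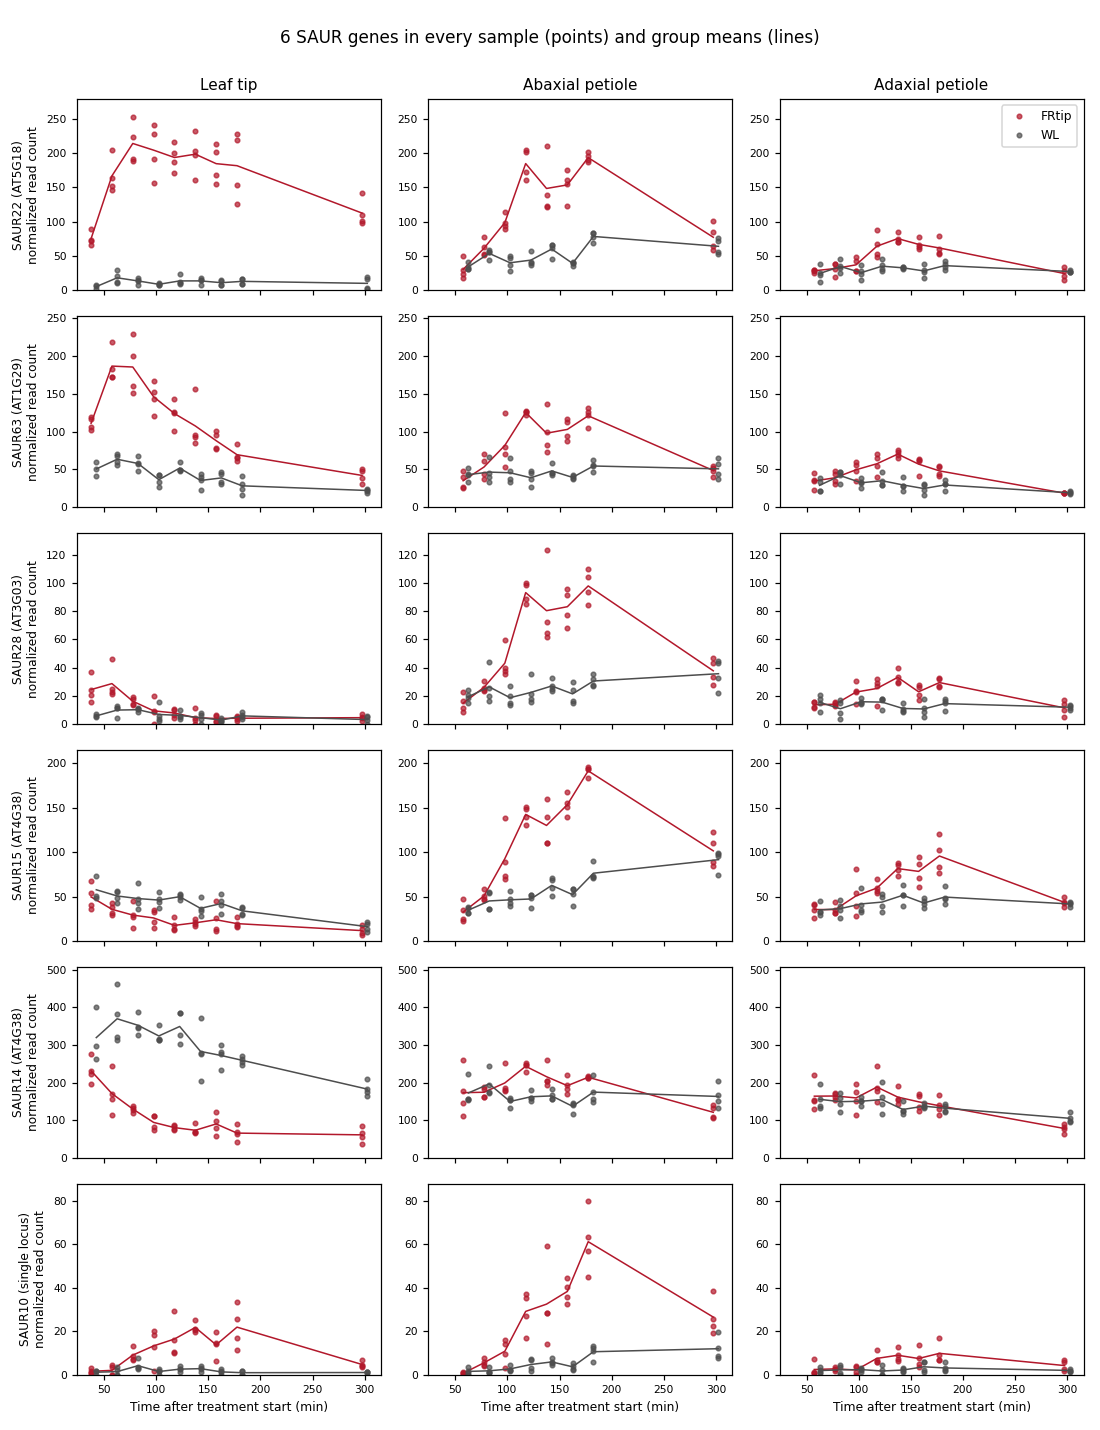
Normalized read counts of SAUR22, SAUR63, SAUR28, SAUR15, SAUR14 and SAUR10 against minutes of treatment in the leaf tip, abaxial and adaxial petiole, with a point for each sample and a line through the mean of each treatment. SAUR22 stays high in the leaf tip until 300 min (113 ± 19.8 in FRtip, 10.3 ± 8.94 in WL), and in the abaxial petiole FRtip and WL meet again at 300 min.

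In AT1G29, which holds the SAUR63 group that promotes hypocotyl and filament elongation, 7 of 8 genes were higher at 100 to 180 min on each petiole side and 6 of 8 in the leaf tip at 40 to 80 min and at 100 to 180 min. SAUR63 (AT1G29440) led in the leaf tip, at 144, 167, 121 and 153 normalized read counts at 100 min in FRtip, against 43.3, 27.1, 33.2 and 42.3 in WL. At 120 min in the abaxial petiole it was at 127, 122, 127 and 127 in FRtip, against 37.5, 44.9, 26.5 and 47.3 in WL. FRtip samples were above WL samples in both tissues, and of the AT1G29 genes SAUR63 alone was still called at 300 min in the leaf tip (0.87 ± 0.19 log2, SE, adjusted p = 0.0008). The libraries were strand specific per the labels, the strand setting used in counting is not given in the sources used here, and SAUR63 lies opposite another gene, AT1G29435, over 602 bases.

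AT1G29490 had the largest abaxial effect of the cluster, and at 180 min was at 33.2, 29.7, 41.3 and 41.3 normalized read counts in FRtip, against 5.18, 7.13, 2.69 and 3.66 in WL. No samples overlapped. Its log2 effect at 100 to 180 min was 2.33 ± 0.19 abaxially and 1.04 ± 0.21 adaxially (SE, adjusted p = 5.5e-14 and 0.00072). SAUR61 (AT1G29420), the AT1G29 gene with the highest mean, was the exception in the petiole, at 74.2, 72.7, 81.4 and 106 abaxially at 120 min in FRtip, against 84.4, 78.3, 52.97 and 79.7 in WL. These groups overlapped, and the window effect of 0.15 ± 0.08 log2 did not pass (SE, adjusted p = 0.31). On the opposite strand a long noncoding RNA, AT1G06257, covers 342 of the 723 bases of SAUR61.

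The 4 AT3G03 genes, of a group known for natural variation in growth at warm temperature, rose early and briefly in the leaf tip and for longer in the petiole. All 4 were called higher in the leaf tip at 40 to 80 min, none passed there at 100 to 180 min (unadjusted p between 0.278 and 0.915), and all 4 were higher at 100 to 180 min on each petiole side. SAUR28 (AT3G03830) was at 15.7, 36.9, 24.5 and 20.7 normalized read counts in the leaf tip at 40 min in FRtip, against 7.22, 4.91 and 5.43 in WL. On the abaxial side at 120 min it was at 88.8, 98.9, 85.0 and 100.1 in FRtip, against 15.3, 21.02, 17.8 and 35.7 in WL. The groups stood apart in both tissues, with the leaf tip values resting on 3 to 42 reads each. Its log2 effect at 100 to 180 min was 0.03 ± 0.27 in the leaf tip, against 1.67 ± 0.12 abaxially (SE, adjusted p = 0.956 and 1.6e-16). The early leaf tip effect of 1.30 ± 0.36 (SE, adjusted p = 0.0096) did not pass without replicate 2 (0.122) or replicate 3 (0.139).

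By 300 min abaxially SAUR28 was at 33.3, 27.9, 46.9 and 43.1 in FRtip, against 44.5, 22.3, 32.8 and 43.3 in WL, and the groups overlapped.

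SAUR29 (AT3G03820) changed direction within the leaf tip. At 60 min it was at 137, 138, 97.6 and 78.6 normalized read counts in FRtip, against 77.6, 66.3, 54.2 and 31.7 in WL. At 300 min it was at 8.53, 11.4, 15.1 and 6.67 in FRtip, against 23.2, 17.3, 18.99 and 22.1 in WL. Every sample was above WL at 60 min and below it at 300 min. The effects were 0.82 ± 0.16 log2 at 40 to 80 min and -0.95 ± 0.27 at 300 min (SE, adjusted p = 0.00012 and 0.012, limma), and the later effect did not pass with edgeR (adjusted p = 0.0841) or DESeq2 (0.0736) or without replicate 1 (0.113) or replicate 4 (0.0934). Abaxially at 160 min it was at 155, 168, 137 and 159.7 in FRtip, against 75.3, 83.4, 65.3 and 61.7 in WL, with all FRtip samples above.

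In AT4G38, 2 of the 4 genes went opposite ways in leaf tip and abaxial petiole. SAUR14 (AT4G38840), which light induces in cotyledons and represses in hypocotyls, was at 67.9, 92.3, 67.6 and 65.5 normalized read counts in the leaf tip at 140 min in FRtip, against 205, 371, 279 and 277 in WL. Abaxially at 120 min it was at 253, 247, 227 and 246 in FRtip, against 159, 159, 151 and 179 in WL. All FRtip samples were below WL in the leaf tip and above WL in the abaxial petiole. The log2 effects at 100 to 180 min were -1.89 ± 0.09 in the leaf tip and 0.43 ± 0.07 abaxially (SE, adjusted p = 6.2e-26 and 4.3e-06), and the difference between the tissues was -2.32 ± 0.11 (adjusted p = 1.9e-34).

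SAUR15 (AT4G38850), early known as the auxin-induced SAUR-AC1, behaved likewise next to it. It was at 21.5, 24.5, 16.9 and 19.002 normalized read counts in the leaf tip at 140 min in FRtip, against 35.7, 27.6, 49.6 and 33.97 in WL. At 120 min on the abaxial side it was at 148, 151, 130.5 and 139.8 in FRtip, against 51.99, 47.8, 36.99 and 52.3 in WL. Again no samples overlapped, with FRtip below WL in the leaf tip and above WL abaxially. The leaf tip effect minus the abaxial effect was -2.28 ± 0.16 log2 (SE, adjusted p = 1.5e-23). SAUR13 (AT4G38825) rose on both petiole sides (0.63 ± 0.09 and 0.61 ± 0.11, SE) and overlaps AT4G38820 on the other strand over 433 bases, a gene that also rose (0.84 ± 0.10 abaxially and 0.65 ± 0.10 adaxially). SAUR16 (AT4G38860), with the highest mean of the cluster, moved little, at 324, 359.9, 343 and 292 abaxially at 120 min in FRtip, against 244, 319, 257 and 243 in WL, where the groups overlapped.

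AT2G21 and AT4G34 held genes that did not pass in any window beside genes that did. SAUR6 (AT2G21210) fell in the leaf tip, where it was at 67.9, 71.6, 69.0 and 49.6 normalized read counts at 140 min in FRtip, against 124, 156, 119 and 92.4 in WL. Its abaxial values at 120 min were 99.8, 86.2, 64.5 and 73.7 in FRtip, against 56.3, 67.4, 34.2 and 38.2 in WL. The leaf tip groups stood apart and the abaxial groups overlapped, with effects at 100 to 180 min of -0.95 ± 0.08 log2 in the leaf tip and 0.49 ± 0.08 abaxially (SE, adjusted p = 1.3e-15 and 9e-06). SAUR7 (AT2G21200), which shares 176 bases of its strand with SAUR6, was at 48.99, 43.7, 50.7 and 49.7 abaxially at 160 min in FRtip, against 18.5, 21.03, 14.1 and 21.7 in WL, without overlap.

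In AT4G34, SAUR50 and SAUR1 rose on both petiole sides, while SAUR3, SAUR4 and SAUR5 were called in no window of any tissue. SAUR50 (AT4G34760), another gene that light regulates in opposite ways in cotyledons and hypocotyls, was at 318, 311, 369 and 327 normalized read counts abaxially at 160 min in FRtip, against 141, 191, 151 and 169 in WL. SAUR1 (AT4G34770) was at 196, 198, 178 and 244 abaxially at 180 min in FRtip, against 76.2, 89.8, 88.7 and 76.4 in WL. Neither overlapped. SAUR50 alone of this cluster was called in the leaf tip, at 175, 136, 168 and 150.5 at 60 min in FRtip, against 87.3, 61.7, 83.4 and 109.9 in WL.

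Of the single loci, 15 of 18 were tested, and they followed no common course. At 100 to 180 min on the abaxial side SAUR10, SAUR25 and SAUR76 were higher and SAUR59 was lower. Adaxially SAUR10, SAUR76 and SAUR77 were higher and SAUR32 was lower. The adaxial call of SAUR77 rested on few reads, with 47 in FRtip and 24 in WL over all of 100 to 300 min. In the leaf tip at 100 to 180 min 8 were higher and 4 lower, and the highest were SAUR9 (3.39 ± 0.20 log2, SE), SAUR10 (2.71 ± 0.24) and SAUR52 (1.59 ± 0.24). Shares of all genes called in this window are given above for each tissue, and the single loci were not tested against them. The SAUR52 effect rested on 47 leaf tip reads in FRtip and 7 in WL.

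SAUR10 (AT2G18010), induced by auxin, brassinosteroid and low red to far-red ratio in other work, was at 35.7, 32.5, 40.6 and 44.7 normalized read counts abaxially at 160 min in FRtip, against 5.28, 4.21, 2.35 and 2.71 in WL. Adaxially at 120 min it was at 11.5, 5.98, 5.74 and 6.76 in FRtip, against 0, 2.30, 0 and 4.53 in WL. Its leaf tip values at 180 min were 16.7, 33.7, 11.6 and 25.7 in FRtip, against 1.83, 0, 1.88 and 0 in WL. FRtip samples were above WL samples in all 3 tissues, in the leaf tip from a WL level of at most 2 reads. Its effects at 100 to 180 min were 2.35 ± 0.18, 1.13 ± 0.23 and 2.71 ± 0.24 log2 in abaxial petiole, adaxial petiole and leaf tip.

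SAUR9 (AT4G36110) rose in the leaf tip from a level near zero. At 180 min it was at 16.7, 10.5, 12.5 and 12.8 normalized read counts in FRtip, against 0, 0, 0 and 1.24 in WL. Over 100 to 180 min it had 146 reads in the 20 FRtip samples and 2 reads in the 20 WL samples, so that its fold is not given. In the adaxial petiole at 300 min the order was reversed, at 16.6, 16.4, 19.3 and 18.1 in FRtip, against 33.2, 32.5, 27.4 and 49.7 in WL. No samples overlapped there, and the effect was -0.95 ± 0.21 log2 (SE, adjusted p = 0.0029, and 0.10 without replicate 4).

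SAUR25 (AT4G13790) responded in the abaxial petiole and was close to absent elsewhere. At 180 min abaxially it was at 11.7, 12.04, 15.0 and 15.6 normalized read counts in FRtip, against 0.740, 1.43, 1.61 and 1.37 in WL. Adaxially at that time it was at 0.937, 0, 0 and 0 in FRtip, against 0 in all 4 WL samples. The abaxial groups stood far apart, and the adaxial values are 1 read in all. Leaf tips held 0 reads of it until 180 min in both treatments and 4 reads at 300 min in FRtip, against 0 in WL. That is the one member with a higher leaf tip effect at 300 min than at 100 to 180 min (1.29% of all genes, 0.92 ± 0.23 log2, SE, adjusted p = 0.015), a call lost with edgeR, with limma's trend, with a pseudocount of 5 and without replicate 1 or replicate 4.

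SAUR76 and SAUR78 have proteins that were reported to bind ethylene receptors. For both, the effect at 100 to 180 min was lower in the leaf tip than abaxially (-2.004 and -0.63 log2). SAUR76 (AT5G20820) was at 19.2, 20.5, 5.64 and 8.70 normalized read counts abaxially at 160 min in FRtip, against 1.32, 2.10, 2.35 and 1.08 in WL. Adaxially at 160 min it was at 5.99, 16.6, 7.30 and 13.5 in FRtip, against 0, 2.86, 1.68 and 2.06 in WL. All FRtip samples exceeded WL, with a wide spread among them. In the leaf tip SAUR76 had 45 reads in FRtip and 80 in WL at 100 to 180 min. Abaxially SAUR78 met the rule for an upward onset at 140 min, its peak there (0.71 log2). SAUR78 (AT1G72430) was at 85.3, 68.8, 75.2 and 89.8 in the leaf tip at 60 min in FRtip, against 178, 199, 209 and 151 in WL, and its leaf tip effect was -1.06 ± 0.13 log2 at 40 to 80 min and -0.45 ± 0.10 at 100 to 180 min (SE, adjusted p = 3e-09 and 0.00021).

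SAUR59 and SAUR32 were lower in more than 1 tissue. SAUR59 (AT3G60690) was at 14.9, 22.6, 16.9 and 19.002 normalized read counts in the leaf tip at 140 min in FRtip, against 21.97, 45.4, 46.5 and 46.2 in WL, where the groups overlapped through 1 WL sample. Abaxially at 160 min it was at 2.13, 2.65, 2.82 and 0.621 in FRtip, against 5.28, 7.01, 5.29 and 5.41 in WL. The abaxial groups stood apart, on 10 reads or fewer per sample. SAUR32 (AT2G46690), which acts in the apical hook, was at 22.5, 40.3, 27.7 and 33.5 adaxially at 300 min in FRtip, against 65.5, 54.5, 62.1 and 66.5 in WL, and no samples overlapped (-1.01 ± 0.16 log2, SE, adjusted p = 2.4e-05). SAUR51, SAUR72 and SAUR41 had abaxial effects at 100 to 180 min of -0.51 ± 0.22, -0.49 ± 0.17 and -0.46 ± 0.20 that did not pass (adjusted p = 0.147, 0.0502 and 0.150), and leaf tip effects of 0.76 ± 0.29, 1.05 ± 0.27 and 0.89 ± 0.27 that did (0.044, 0.0016 and 0.0081).

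To compare the response at the site of far-red with that in the remote petiole, the leaf tip effect minus the abaxial effect at 100 to 180 min was tested. It was higher for 11 and lower for 20 of the 45 members, against 8.26 and 10.2% of all genes, with a median of -0.27. The 11 members with the larger leaf tip effect included SAUR20, SAUR22, SAUR23 and SAUR24 of AT5G18 and SAUR9, SAUR72 and SAUR52 among the single loci, from 2.73 ± 0.31 log2 (SAUR9) and 2.35 ± 0.18 (SAUR22) to 0.69 ± 0.11 (SAUR20). The 20 with the lower leaf tip effect included all 4 AT3G03 genes, SAUR6 and SAUR7, SAUR14 and SAUR15. For 3 of the 20, SAUR25, AT1G29490 and SAUR3, the leaf tip held under 1 read per sample on average (0, 30 and 12 reads in FRtip, against 0, 7 and 23 in WL), so that these differences rest on few leaf tip reads, and 17 remain without them. With a mean of at least 10 as the filter, 6 were higher.

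**Figure D3:**
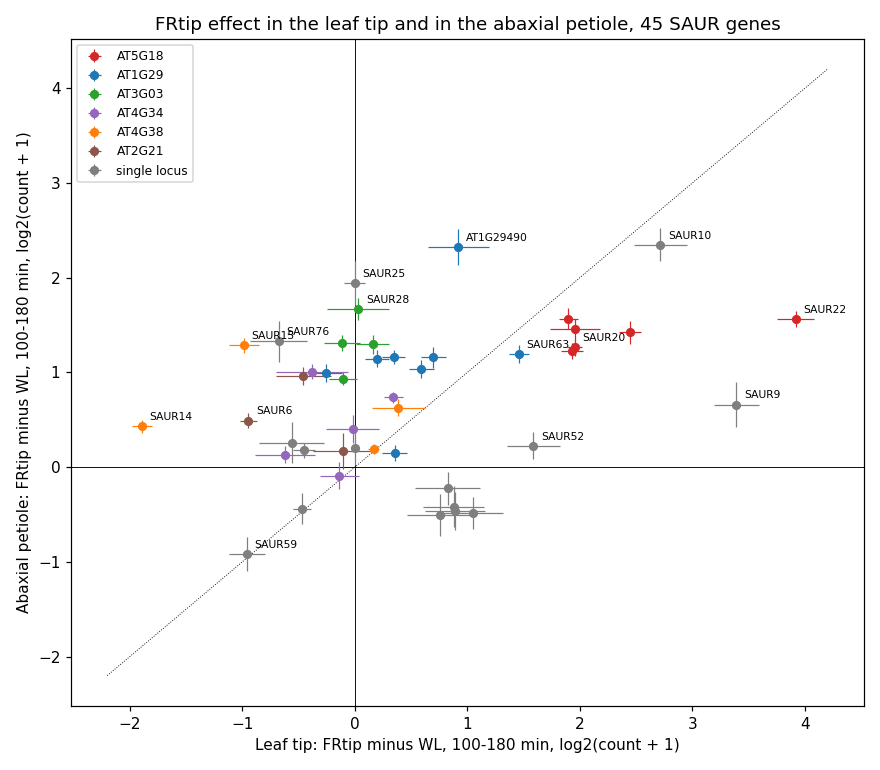
Log2 effect of FRtip at 100 to 180 min in the leaf tip (x axis) against that in the abaxial petiole (y axis), with a point for each of the 45 tested SAUR genes, coloured by cluster, bars of 1 SE and a dotted line of equal effects. AT5G18 genes lie high on both axes, SAUR14 and SAUR15 are negative in the leaf tip (-1.89 and -0.99) and positive abaxially (0.43 and 1.29), and SAUR22 and SAUR9 are highest in the leaf tip (3.92 and 3.39).

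For the petiole sides, the FRtip effect over 100 to 300 min was larger abaxially for 13 of 45 members and smaller for 0 (0.466 and 0.371% of all genes), with limma. SAUR25, among the 13, held under 1 adaxial read per sample on average (12 reads in FRtip, 4 in WL), so that its difference restates the abaxial rise, and 12 remain without it. At an unadjusted p below 0.05, 24 were larger and 3 smaller, edgeR called 9 and 0, and the median difference was 0.31 log2 against 0.01 over all genes. The 12 were AT1G29490 (1.08 ± 0.26), SAUR10 (1.08 ± 0.27), SAUR28 (0.65 ± 0.17), SAUR21 (0.64 ± 0.16), SAUR22 (0.63 ± 0.13), SAUR15 (0.57 ± 0.11), SAUR23 (0.51 ± 0.14), SAUR27 (0.48 ± 0.12), SAUR20 (0.44 ± 0.12), SAUR6 (0.41 ± 0.10), SAUR29 (0.34 ± 0.09) and SAUR50 (0.31 ± 0.08), each with its SE. The count of 13 fell to 6 without replicate 1, 1 without replicate 3 and 4 without replicate 4, and the sides were fitted as independent samples. With the sides of the same replicate number taken as pairs it was 16. With edgeR, AT1G29490 and SAUR10 did not pass (adjusted p = 0.454 and 0.168).

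The sides also differed in WL. Averaged over 60 to 300 min, 31 members were higher and 5 lower abaxially than adaxially, against 32 and 35% of all genes, with a median difference of 0.54 log2. SAUR3 (2.49 ± 0.09, SE), SAUR77 (2.48 ± 0.14) and SAUR5 (1.92 ± 0.14) had the largest abaxial excess, and all 6 AT5G18 genes were higher abaxially, by 0.51 to 1.41. SAUR9 was lower abaxially, by a log2 difference of -2.52 ± 0.14 (SE). Over 5 mesophyll genes, the summed medians were 22864 abaxially and 39545 adaxially in WL, and their part in these differences was not tested.

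Relative to both petiole sides, the leaf tip in WL was higher for 11 members and lower for 28, against 38.1 and 46.8% of all genes. The lowest in the leaf tip were SAUR3 (-4.90 ± 0.12 log2, SE), SAUR13 (-4.86 ± 0.11) and SAUR1 (-4.60 ± 0.14), and the highest was SAUR59 (2.81 ± 0.13). SAUR22 and SAUR9, the members with the largest leaf tip rises in FRtip, were lower in the leaf tip than in the petiole in WL, with log2 differences of -1.63 ± 0.08 and -3.996 ± 0.13 (SE).

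Many of the members that had risen in the petiole had a smaller effect at 300 min. The FRtip effect was lower at 300 min than at 100 to 180 min for 23 members abaxially and higher for 0 (1.99 and 0.827% of all genes, 1 higher at an unadjusted p below 0.05, limma), and lower for 12 adaxially and higher for 1 (1.32 and 0.541%), with medians over members of -0.81 and -0.61 log2. The leaf tip effect was lower for 0 (limma, 0.882% of all genes, 9 at an unadjusted p below 0.05, 0 with edgeR). Leaving out replicate 4 gave 14 abaxially, and adaxially leaving out replicate 1, 3 or 4 gave 6, 6 and 5. The 4 members that met the rule for single time points abaxially at 300 min were SAUR10 (1.12 log2), SAUR76 (1.05), SAUR36 (0.97) and SAUR53 (0.54), with adjusted p between 0.068 and 0.121, and adaxially it was SAUR36 alone (1.05, adjusted p = 0.140). SAUR10 was at 19.2, 22.5, 38.6 and 25.9 normalized read counts abaxially at 300 min in FRtip, against 12.2, 7.66, 8.56 and 19.5 in WL, with a slight overlap of the groups. Adaxially SAUR72 had a higher effect at 300 min (1.67 ± 0.46 log2, SE, adjusted p = 0.041), a call lost with a pseudocount of 0.5, without the filter and without any one of the replicates. Whether the leaf tip differed from the petiole in this change was not tested.

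Within treatments, levels at 300 min against 100 to 180 min were lower for 26 members abaxially in FRtip (15.0% of all genes), against 2 in WL (6.9%), and higher for 3 (11.5%), against 5 in WL (5.57%). Adaxially they were lower for 27 in FRtip (12.1%), against 7 in WL (6.1%), and higher for 3 (9.87%), against 2 in WL (5.87%). Leaf tip levels were lower for 19 in FRtip (12%) and 19 in WL (11.5%), and higher for 1 (11.2%), against 0 in WL (9.57%, limma, 0 at an unadjusted p below 0.05). SAUR15 shows the abaxial case, at 88.8, 84.4, 123 and 109.9 normalized read counts at 300 min in FRtip, against 97.6, 95.4, 74.7 and 98.6 in WL. These groups overlapped, where at 120 min they had stood apart. From 100 to 180 min to 300 min SAUR15 fell by 0.44 ± 0.14 log2 in FRtip and was higher by 0.70 ± 0.14 in WL (SE, adjusted p = 0.012 and 0.00014).

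**Figure D4:**
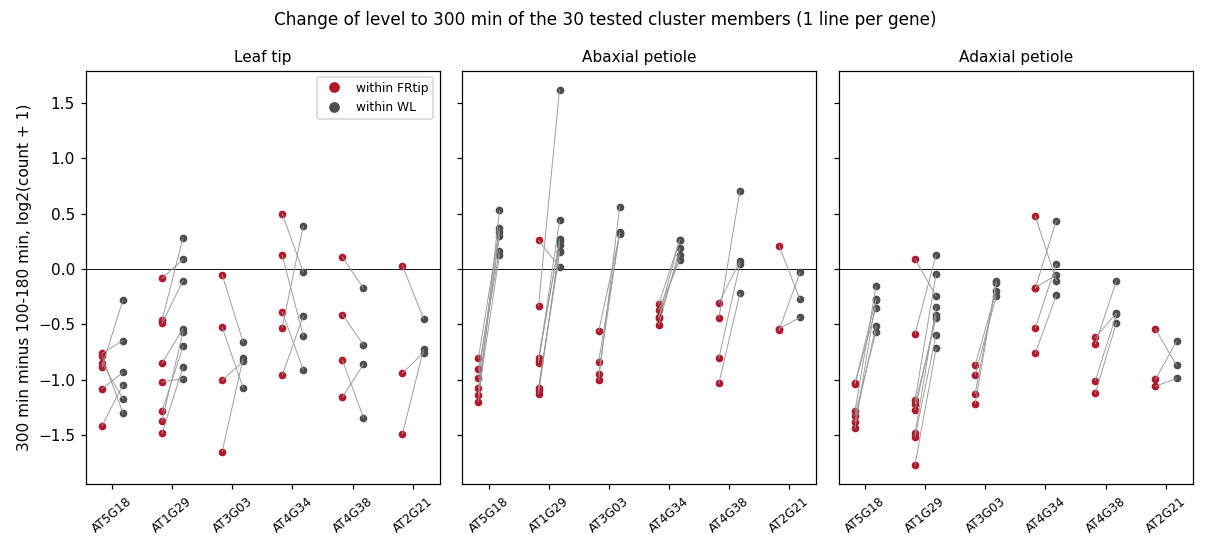
Level at 300 min minus level at 100 to 180 min, as a difference of log2(normalized read count + 1), within FRtip (left, red) and within WL (right, grey) for the 30 tested cluster genes in the leaf tip, abaxial and adaxial petiole, with a line joining the points of each gene. Abaxially the 6 AT5G18 genes lie between -1.20 and -0.80 in FRtip and between 0.13 and 0.53 in WL, while leaf tip genes lie mostly below 0 in both treatments.

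At 300 min a few members stood apart. SAUR77 (AT1G17345), with 0 reads in all leaf tip windows, was at 0.740, 1.55, 4.14 and 8.62 normalized read counts abaxially at 300 min in FRtip, against 7.89, 8.36, 8.09 and 16.2 in WL. The groups overlapped through 1 FRtip sample, and the effect was -1.47 ± 0.38 log2 (SE, adjusted p = 0.0092, but 0.104 without replicate 1 and 0.0743 without replicate 2). SAUR25 abaxially at 300 min was at 14.1, 10.07, 36.5 and 21.02 in FRtip, against 16.5, 4.87, 9.04 and 13.0 in WL. The WL level itself was higher at 300 min than at 100 to 180 min, by 2.77 ± 0.41 log2 (SE, adjusted p = 5.8e-07).

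Genes of a cluster varied in how alike their courses were. Over the 25 combinations of tissue and time point, Pearson's r between the effects of 2 genes had a median of 0.93 in AT5G18 (15 pairs), 0.88 in AT3G03 (6 pairs) and 0.63 in AT1G29 (28 pairs), against 0.12 in AT4G38 (6 pairs), 0.22 in AT4G34 (10 pairs) and 0.34 between genes of different clusters (367 pairs). The effects at a time point come from the same samples, so these values describe the profiles only.

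Inside the cluster spans lie 13 protein-coding genes that are no SAUR, 7 of them tested. At 100 to 180 min 4 of the 7 were higher abaxially, DRT101 in AT5G18 (1.00 ± 0.09 log2, SE), AT4G38820 (0.84 ± 0.10), AT1G29465 (0.77 ± 0.07) and AT2G21195 (0.55 ± 0.07). AT4G38820 and AT2G21195 overlap SAUR13 and SAUR7 on the other strand. Of 19 tested genes that flank the clusters, 0 were called in either direction (limma) on either petiole side in that window, with effects between -0.23 and 0.17 log2 abaxially. At an unadjusted p below 0.05 it was 6 abaxially and 1 adaxially. Flanking genes were called elsewhere. In the leaf tip at 100 to 180 min, 1 of the 19 was higher and 7 were lower. At the last time point 1 was higher and 3 lower abaxially, 0 and 2 adaxially, and 1 and 2 in the leaf tip. The shares of all genes called in these windows are given above, and the flanking genes were not tested against them.

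Other parts of the pathway were taken from lists. Of 29 further SAUR loci 11 were tested. At 100 to 180 min SAUR35 alone of these was higher on the abaxial side (5.77% of all genes, 0.77 ± 0.17 log2, SE, and 1.08 ± 0.20 adaxially), while in the leaf tip 0 were higher (limma, also 0 at an unadjusted p below 0.05) and 4 lower (16.8% of all genes, SAUR31, SAUR56, SAUR60 and SAUR70). Of 9 PP2C.D phosphatases, targets of SAUR proteins, 7 were higher abaxially (5.77% of all genes), 4 adaxially (3.15%) and 4 in the leaf tip (12.4%) at 100 to 180 min. APD7 (AT5G02760) had the largest effects, 2.36 ± 0.18 abaxially, 1.30 ± 0.19 adaxially and 2.39 ± 0.12 in the leaf tip, and was still higher at 300 min in the leaf tip (1.66 ± 0.26) and abaxially (1.43 ± 0.40). Of 2 proton pumps, HA2 was higher in the leaf tip (0.50 ± 0.07) and HA1 lower abaxially (-0.12 ± 0.03).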

How the data were processed

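The authors sequenced poly-A RNA on a NextSeq with reads of 75 bases, and their processing notes name FastQC, STAR, Picard, HTSeq, DESeq and the TAIR10 genome, with no roles or versions given. The deposited values are a signal, read counts per gene divided by a size factor of the sample (0.308 to 2.68). Whole reads were recovered within 0.01 reads for 100% of values, and all genes were annotated from RefSeq TAIR10.1 by locus code.

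Values were tested as log2(value + 1) with limma 3.58.1 (R 4.3.3) in genes with a mean of at least 1, per tissue over all time points and treatments, with Benjamini-Hochberg adjustment over all 19963 genes tested. Contrasts were means over early (40 to 80 min, petiole 60 to 80 min), middle (100 to 180 min) and late (300 min) windows, and single time points for onsets. Alternatives were other pseudocounts and filters, centring, limma's trend, a replicate block, the petiole sides as pairs (chosen after seeing the data), leaving out each replicate, edgeR 4.0.16 and DESeq2 1.42.0 on recovered reads, and other onset rules. The fits were tested on simulated data. Python 3.11.15, pandas 2.3.3, NumPy 2.4.6 and matplotlib 3.10.9 were used for summaries and figures.

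Values were given for the member with the highest mean and the one with the largest abaxial change at 100 to 180 min in each cluster, for the 4 single loci that rose most and the 4 that fell most there, and for extremes, exceptions and counts of 5 or fewer. The members and lists were chosen with earlier results of these data known. Many of the time points shown for single samples were those with the largest effect of the gene in that tissue. Groups that stand apart there do not describe the other time points.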

Additional observations from a re-analysis of the deposited data

Results flagged for a closer look

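In 10 of the 89 groups of 4 samples whose values were examined, 1 sample lay apart from the other 3 for the spread of its group. Chance flags about 1 in 20 groups. Some flags are slight, since SAUR9 and SAUR25 had 1 read against 0 in the other samples, and SAUR63 was at 122 against 126.55 to 126.8. At 10 of 89 the count is above 1 in 20, and whether any of the flagged samples is aberrant was not tested. In normalized read counts, these were the lowest WL samples of SAUR20 (39.7, abaxial, 120 min), SAUR15 (74.7, abaxial, 300 min) and SAUR59 (21.97, leaf tip, 140 min). The lowest FRtip samples were those of SAUR63 (122, abaxial, 120 min) and SAUR6 (49.6, leaf tip, 140 min). The highest FRtip samples were those of SAUR14 (92.3, leaf tip, 140 min) and SAUR25 (0.937, adaxial, 180 min). The highest WL samples were those of SAUR9 (1.24, leaf tip, 180 min), SAUR59 (7.01, abaxial, 160 min) and SAUR77 (16.2, abaxial, 300 min).

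The FRtip effect over 100 to 300 min differed between petiole sides by limma's interaction test. Abaxial minus adaxial, in log2, it was 0.31 for SAUR50, 0.34 for SAUR29, 0.41 for SAUR6, 0.44 for SAUR20, 0.57 for SAUR15, 0.63 for SAUR22, 0.65 for SAUR28, 1.08 for AT1G29490 and 1.08 for SAUR10. The last 2 did not pass with edgeR. Adaxially AT1G29490 had 107 reads in FRtip and 38 in WL, and SAUR10 had 199 and 70. The count of members with a side difference fell when any replicate was left out.

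Between leaf tip and abaxial petiole at 100 to 180 min, the effect in the leaf tip was the lower for SAUR14 (-2.32), SAUR15 (-2.28), SAUR76 (-2.004), SAUR28 (-1.64), SAUR6 (-1.44), SAUR7 (-1.42), SAUR1 (-1.39), SAUR29 (-1.04), SAUR78 (-0.63) and SAUR50 (-0.40). It was the higher for SAUR20 (0.69), SAUR51 (1.27), SAUR41 (1.36), SAUR72 (1.54), SAUR22 (2.35) and SAUR9 (2.73).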

How the results depend on the processing

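Of 119 results for named genes, 46 lost their call under at least 1 alternative and none changed direction. The rises at 100 to 180 min were the steadiest counts, at 28 abaxially and 22 to 25 adaxially when each replicate was left out. Few reads limit SAUR9, SAUR10 and SAUR25, and SAUR77 in the adaxial petiole. In the leaf tip at 100 to 180 min they also limit members such as SAUR52 (47 in FRtip, 7 in WL), SAUR53 (31 and 12) and SAUR1 (20 and 26). The lower leaf tip than abaxial effect of SAUR1 thus mostly restates its abaxial rise. Effects at 300 min rest on 4 samples a group, against 20 at 100 to 180 min. The main fits took no account of replicate numbers, although same-numbered petiole samples shared some variation. The median correlation of same-numbered samples was 0.08 in the leaf tip, 0.16 abaxially and 0.16 adaxially. Between other numbers it was -0.02, -0.06 and -0.05. Same-numbered samples correlated over 0.1 in 11 of 35 leaf tip, 24 of 32 abaxial and 27 of 32 adaxial pairs. Between the petiole sides of 1 treatment and time point it was 49 of 64 (median 0.16, against -0.06 between other numbers). With the sides taken as pairs, a replicate block chosen after seeing the data, limma gave 16 larger and 0 smaller effects abaxially (13 and 0) and 32 higher and 5 lower in WL (31 and 5). Leaving out members with under 1 read per sample in either tissue, also chosen after seeing the data, gave 12 larger abaxial than adaxial effects (13), and 11 higher and 17 lower leaf tip than abaxial effects (11 and 20). The cause of the changes below was not tested.

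With edgeR, lower members were 1 in the leaf tip at 300 min (2 with limma) and 2 abaxially at 100 to 180 min (1), higher members 1 abaxially at 300 min (0), leaf tip members with a higher effect at 300 min 0 (1), and members higher at 300 min within a treatment 2 in FRtip leaf tips (1), 9 in WL abaxially (5) and 6 in FRtip adaxially (3). With DESeq2 the first 3 of these were 1, 2 and 2. With a pseudocount of 0.5, 2 were lower abaxially at 100 to 180 min (1) and 0 had a higher effect at 300 min adaxially (1). With a pseudocount of 5, 2 were higher abaxially at 300 min (0), 0 had a higher leaf tip effect at 300 min (1), 6 were higher at 300 min in FRtip adaxially (3) and 2 had an onset downward adaxially (1). With a mean of at least 10, 0 were lower abaxially at 300 min (1), 0 had a higher effect at 300 min in the leaf tip (1) or adaxially (1), and 0, 0 and 1 were higher at 300 min within FRtip in leaf tip (1), abaxial (3) and adaxial (3) petiole. With that filter also 1 was higher at 300 min in WL adaxially (2), 3 were lower abaxially than adaxially in WL (5), 6 had a larger leaf tip than abaxial effect (11) and 1 had an onset downward abaxially (2). Without the filter 0 had a higher effect at 300 min adaxially (1). Centring and limma's trend each gave 2 lower abaxially at 100 to 180 min (1), and the trend 0 higher leaf tip effects at 300 min (1). With the replicate block 3 were lower abaxially at 100 to 180 min (1), 2 at 300 min (1), and 5 were higher at 300 min in FRtip on each petiole side (3), and it changed no call of a named gene. Taking the earliest called time point alone gave 9, 5 and 3 onsets downward in leaf tip (4), abaxial (2) and adaxial (1) petiole, and an adjusted p below 0.05 gave 0 downward on each petiole side and 1 upward adaxially (20).

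Leaving out each replicate in turn gave 3 to 6 lower in the leaf tip at 40 to 80 min, 1 to 2 lower there at 300 min, 0 to 2 lower abaxially at 300 min, 1 to 2 lower adaxially at 100 to 180 min and 1 to 3 at 300 min. Effects were higher at 300 min for 0 to 1 in the leaf tip and 0 adaxially, and lower for 14 to 20 abaxially and 5 to 9 adaxially. Within WL, 3 to 9 were higher and 1 to 2 lower at 300 min abaxially, and 1 to 2 higher and 4 to 6 lower adaxially. The side difference held for 1 to 11, 4 to 8 were lower abaxially than adaxially in WL, and onsets downward were 0 to 2 abaxially and 0 to 1 adaxially.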
